A study of Mus musculus with 8 samples.

Results

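The 7 Ly6 surface antigen genes Ly6a, Ly6c1, Ly6c2, Ly6d, Ly6e, Ly6g and Ly6i were followed in mouse MLL-AF9 acute myeloid leukaemia cells over 24 hours of a Klf4 induction experiment. They were taken by name, 7 of the 47069 genes in the count files, and were selected on their expression levels in these same libraries, which were known when they were proposed. Their own values are therefore given as a description, with no test. All 7 had a row, and 3 of them (Ly6c2, Ly6e and Ly6g) passed the filter on low counts.

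Bulk RNA sequencing was done on 8 libraries, 2 at each of 0h, 6h, 12h and 24h. Every group consisted of leukaemia cells from the bone marrow of leukaemic mice, sorted for GFP, with the MLL-AF9 fusion and TetO-Klf4, a Klf4 gene switched on by doxycycline; the strain is given as C57BL/7. What the hours are counted from is not given, and no doxycycline-treated cells without TetO-Klf4 were analysed here, so time, drug and Klf4 cannot be told apart. The labels do not say whether the replicates came from separate mice, and every p-value therefore reflects the spread between libraries alone. Libraries held 20394546 to 26041347 gene counts, at which 0 counts allow a level of 0.115 to 0.147 CPM (counts scaled to library size), counting error only. Klf4 itself stood at 2.71 and 4.42 CPM at 0h, 152 and 151 CPM at 6h, 114 and 111 CPM at 12h, and 76.8 and 78.7 CPM at 24h. All 15 leukaemia and myeloid identity genes passed the filter. At 24h against 0h, 3 of the 15 rose and 6 fell, beside 26.1% and 24.8% of all tested genes. Their summed level was 3926 to 3999 CPM at 24h against 4331 to 4346 CPM at 0h. Hoxa9, a homeobox gene kept on by MLL fusions, averaged 448 CPM at 24h and 413 CPM at 0h. Csf1r, the receptor of monocytes and macrophages, averaged only 1.32 CPM at 24h and 1.14 CPM at 0h. Both of these means were higher at 24h, while the summed level of the 15 was lower, so these 2 genes do not represent the list.

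Ly6 proteins are small, cysteine-rich proteins of the Ly6/uPAR family, most of them held on the outer face of the cell by a glycosylphosphatidylinositol (GPI) anchor. In mouse blood formation they serve as markers: Ly6a is Sca-1 of stem and progenitor cells, Ly6c1 and Ly6c2 encode the Ly6C antigen of monocytes and granulocytes, Ly6g marks neutrophils, and Ly6d marks early B-lineage progenitors. Ly6e is more widely expressed and, with Ly6a and Ly6c, is known to respond to interferon. Ly6i is a close relative of Ly6a.

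Because near-copies may share or lose reads, the sequences were compared first. The first 60 coding bases of the 5 closest members, from GENCODE M21, are shown with capitals at each base that differs from Ly6c2.
Ly6c2: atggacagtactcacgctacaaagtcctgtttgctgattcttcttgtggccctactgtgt
Ly6c1: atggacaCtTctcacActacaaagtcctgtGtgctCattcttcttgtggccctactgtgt
Ly6a: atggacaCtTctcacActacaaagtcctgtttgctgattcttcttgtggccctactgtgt
Ly6i: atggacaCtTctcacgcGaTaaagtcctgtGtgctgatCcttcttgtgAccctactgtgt
Ly6g: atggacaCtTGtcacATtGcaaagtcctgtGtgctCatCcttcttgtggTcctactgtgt
Over the whole coding sequence, Ly6c1 and Ly6c2 were identical at 384 of 393 aligned bases, or 97.7%. Ly6a shared 86.3% with Ly6i, 83.1% with Ly6g and 81.6% with Ly6c2, and Ly6c2 shared 76.9% with Ly6g. Ly6d and Ly6e stood apart, at 44.7% to 49.8% with any other member.

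A read can be placed only where its letters are found in a single gene. Of the 75-base words of the principal transcript, 23.2% in Ly6c1 and 21.9% in Ly6c2 also occurred in another annotated gene, which left 591 of 770 words in Ly6c1 and 584 of 748 in Ly6c2 as their own. The share was 2.38% in Ly6a, 0.555% in Ly6i and 0% in Ly6d, Ly6e and Ly6g. Sharing thus touched the Ly6c pair far more than Ly6g and Ly6e. The read length is not given in the sources used here, and only annotated transcripts were searched.

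**Figure D1:**
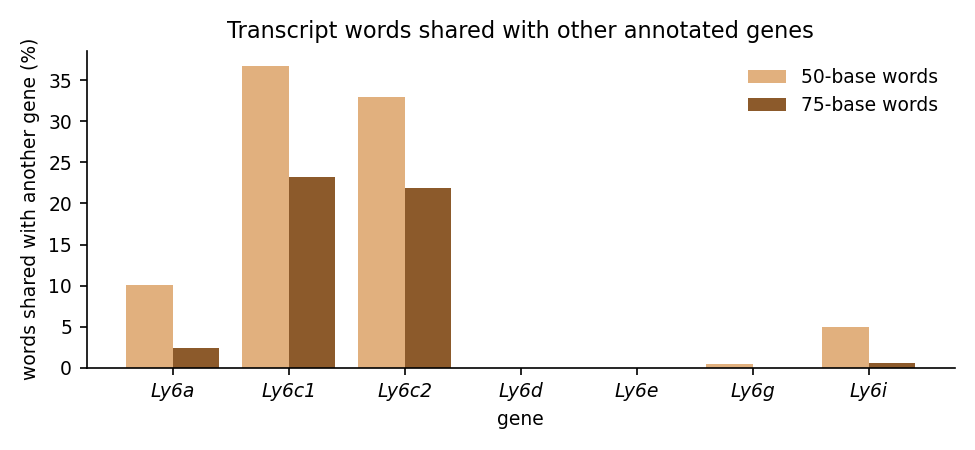
Share of each gene's 50-base and 75-base transcript words (vertical axis, %) that also occurred in another annotated gene, for the 7 members (horizontal axis). The bars of Ly6c1 (36.7% and 23.2%) and Ly6c2 (33.0% and 21.9%) are the tallest; Ly6d and Ly6e are at 0%.

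Ly6g, the neutrophil antigen gene (ENSMUSG00000022582, chr15:75155240-75159126, plus strand, mm10), had the largest fold differences between times of the 3 members that passed the filter. Its level was 3.37 and 3.82 CPM at 0h, 4.77 and 6.01 CPM at 6h, 18.6 and 19.2 CPM at 12h, and 38.5 and 39.2 CPM at 24h. The 24h libraries held 1019 and 972 Ly6g counts, and the 0h libraries 67 and 83. Both libraries of each time lay above both libraries of the time before. The log2 fold change against 0h was 0.60 ± 0.15 (SE, n = 2 each) at 6h, 2.39 ± 0.12 at 12h and 3.43 ± 0.11 at 24h, which is 10.8-fold at 24h. Between neighbouring times it was 1.80 ± 0.11 for 12h against 6h and 1.04 ± 0.08 for 24h against 12h. On the log2 scale, 17.3% of the 24h difference was present at 6h and 69.7% at 12h. In bulk RNA, more cells of a type and more of the RNA per cell cannot be told apart.

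Markers of mature neutrophils differed from 0h mainly at 24h. The summed level of the 10 listed genes was 101 to 112 CPM at 6h, 111 to 120 CPM at 12h and 151 to 152 CPM at 24h, against 107 to 115 CPM at 0h. None of the 10 was at 0. At 24h, 7 of the 9 tested genes rose and 2 fell, and at 12h 1 rose. Over all tested genes, 26.1% rose and 24.8% fell at 24h, and 22.1% rose and 21.6% fell at 12h. Ngp, a neutrophil granule protein gene, averaged 59.8 CPM at 24h and 40.4 CPM at 0h (edgeR adjusted p = 1.0e-09). Cxcr2, the chemokine receptor of mature neutrophils, fell by 1.27 on the log2 scale (adjusted p = 0.0039), to 0.604 CPM at 24h against 1.48 CPM at 0h. The part of these markers in the Ly6g difference was not tested.

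Ly6c2 (ENSMUSG00000022584, chr15:75108158-75111970, minus strand), a gene of the monocyte and granulocyte antigen Ly6C, was the most abundant member. Its level was 996 and 1013 CPM at 0h, 1009 and 1096 CPM at 6h, 1097 and 1104 CPM at 12h, and 1338 and 1393 CPM at 24h. The 6h libraries overlapped those of 0h, and both libraries of 12h and of 24h lay above them. The log2 fold change against 0h was 0.07 ± 0.04 at 6h, 0.13 ± 0.04 at 12h and 0.44 ± 0.04 at 24h, or 1.36-fold at 24h. Leaving out 6h replicate 2 gave a 6h value of 0.0042, leaving out 6h replicate 1 gave 0.12, and with scaling by library totals only it was 0.10, beside 0.20 for the 12h value. Of the 24h difference on the log2 scale, 15.2% was present at 6h and 29.7% at 12h, so most of it fell in the last interval, where the log2 step was 0.31 ± 0.04. Reads from the words that Ly6c1 and Ly6c2 have in common may be shared or lost, and their fate is not recorded. Ly6c1 had 13 counts over all 8 libraries, with 591 of its 770 words of 75 bases found in no other annotated gene.

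Ly6e (ENSMUSG00000022587, chr15:74955051-74959905, plus strand), the widely expressed member, differed least among the 3. Its level was 363 and 389 CPM at 0h, 358 and 389 CPM at 6h, 396 and 386 CPM at 12h, and 427 and 449 CPM at 24h. Only the 24h libraries lay wholly above those of 0h. The log2 fold change against 0h was -0.01 ± 0.04 at 6h, 0.05 ± 0.04 at 12h and 0.22 ± 0.04 at 24h, or 1.16-fold at 24h. The 6h value was -0.073 without 6h replicate 2, -0.059 without 0h replicate 1, 0.039 without 0h replicate 2 and 0.046 without 6h replicate 1, and 0.025 with library totals only. The 12h value was 0.0034 without 0h replicate 1, 0.033 without 12h replicate 1 and 0.10 without 0h replicate 2, and 0.12 with library totals only.

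Across all 7 members, both libraries lay above both 0h libraries in 1 member at 6h, 2 at 12h and 4 at 24h, and the fourth at 24h is Ly6d with 1 count in each library. With scaling by library totals only, 2 members lay above at 6h and 3 at 12h. No member had both libraries below both 0h libraries at any time. Of all 14263 tested genes, 27.3% lay above in this way at 6h, 35.9% at 12h and 38.9% at 24h, and the shares that lay below were 29.0%, 35.3% and 36.0%. Nothing is read from the members' counts, since their choice used these values.

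**Figure D2:**
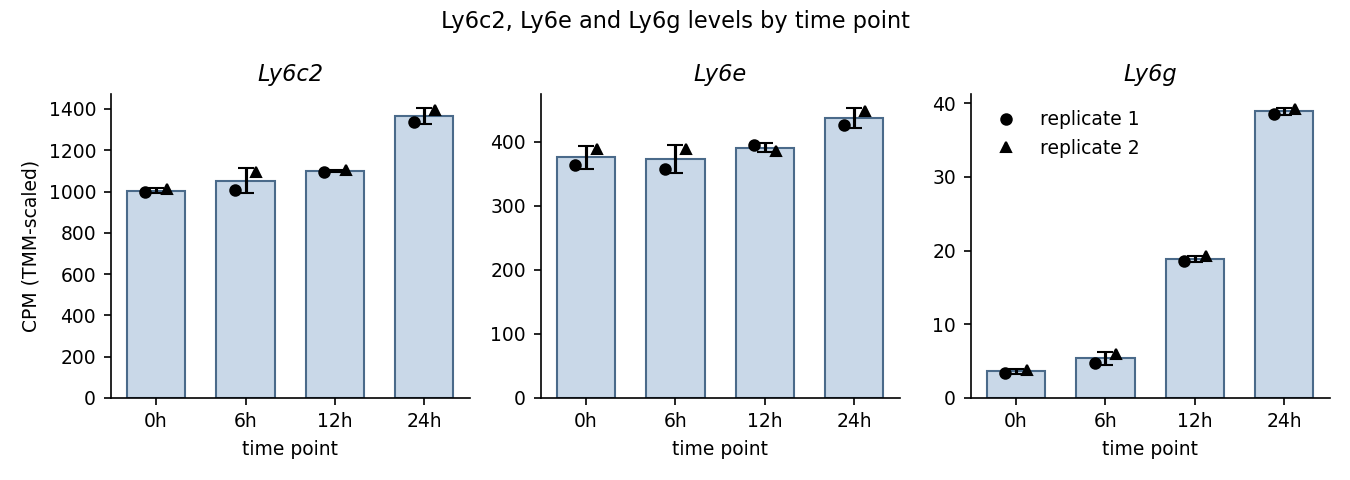
Level of Ly6c2, Ly6e and Ly6g in CPM scaled by TMM (vertical axes, starting at 0, each with its own range) at 0h, 6h, 12h and 24h, with bars for the mean, error bars for the SD (n = 2) and a circle and a triangle for replicates 1 and 2. Ly6g climbs at every time to 38.5 and 39.2 CPM at 24h, while the 24h libraries of Ly6c2 (1338 and 1393 CPM) and Ly6e (427 and 449 CPM) lie a little above the rest.

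The other 4 members were near the limit of detection in every library. Ly6a, the Sca-1 gene (chr15:74994877-74998031, minus strand), had 0 and 9 counts at 0h, 3 and 7 counts at 6h, 3 and 3 counts at 12h, and 10 and 4 counts at 24h, at most 0.414 CPM. Ly6c1 (chr15:75044018-75048830, minus strand) had 13 counts over all 8 libraries, at most 3 in one library. Ly6i (chr15:74979534-74983430, minus strand) had 8 counts in all, and Ly6d (chr15:74762056-74763620, minus strand) had 3. These 4 did not pass the filter on low counts, so differences between their times were not tested at this depth and no fold change is given. The low Ly6c1 counts stand beside 591 of 770 words of 75 bases that were found in no other annotated gene.

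**Figure D3:**
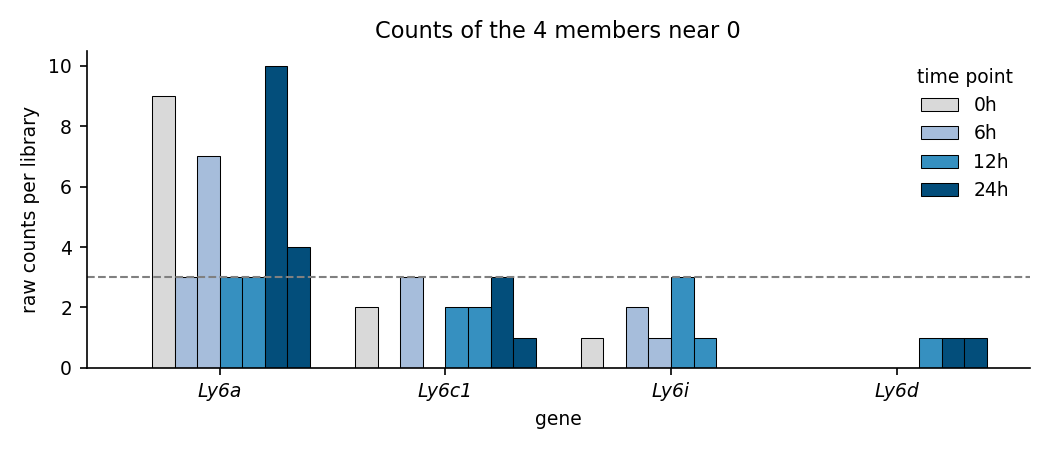
Raw counts per library (vertical axis) of Ly6a, Ly6c1, Ly6i and Ly6d at 0h, 6h, 12h and 24h, with replicate 1 left of replicate 2 in each pair of bars; the dashed line marks 3 counts. Ly6a reaches 10 counts in one 24h library, and Ly6c1, Ly6i and Ly6d never exceed 3.

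The members' counts together made up 0.183% and 0.191% of the 24h libraries and 0.133% and 0.136% of the 0h libraries. Within that sum, Ly6c2 took 72.0% to 74.2% in every library. Ly6g took 2.14% and 2.08% at 24h, against 0.247% and 0.272% at 0h. Per kilobase of principal transcript, the Ly6g level was 2.52% and 2.46% of the Ly6c2 level at 24h, against 0.295% and 0.329% at 0h; with the length of all annotated exons the means were 8.28% at 24h, against 1.04% at 0h. The neutrophil antigen gene thus stayed far below Ly6c2 even at its highest. By level per kilobase among protein-coding genes with a count, Ly6c2 ranked 19 of 14904 at 24h and 61 of 14358 at 0h. Ly6e ranked 311 at 24h and 441 at 0h, and Ly6g 1994 at 24h and 8236 at 0h. These ranks use the principal transcript, 822 bases for Ly6c2, whose annotated exons total 2740 bases. Ranks with the length of all exons were not computed.

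Promoters are shown for the 3 members with an entry in the RefSeq table (GRCm38.p6), because these neighbours differ so much in level. Each is the 250 bases before the start site, read on the gene's strand, with the longest run found in all 3 in capitals.
Ly6c1, chr15:75048838-75049087, minus strand: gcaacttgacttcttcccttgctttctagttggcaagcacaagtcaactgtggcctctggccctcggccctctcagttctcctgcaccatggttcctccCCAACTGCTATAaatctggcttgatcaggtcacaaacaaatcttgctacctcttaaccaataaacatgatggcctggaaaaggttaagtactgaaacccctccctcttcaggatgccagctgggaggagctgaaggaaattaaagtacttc
Ly6c2, chr15:75111972-75112221, minus strand: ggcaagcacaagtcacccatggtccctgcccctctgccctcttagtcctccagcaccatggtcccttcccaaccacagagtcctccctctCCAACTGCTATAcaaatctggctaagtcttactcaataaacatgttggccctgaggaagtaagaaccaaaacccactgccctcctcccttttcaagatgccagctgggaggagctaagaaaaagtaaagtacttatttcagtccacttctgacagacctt
Ly6g, chr15:75155011-75155260, plus strand: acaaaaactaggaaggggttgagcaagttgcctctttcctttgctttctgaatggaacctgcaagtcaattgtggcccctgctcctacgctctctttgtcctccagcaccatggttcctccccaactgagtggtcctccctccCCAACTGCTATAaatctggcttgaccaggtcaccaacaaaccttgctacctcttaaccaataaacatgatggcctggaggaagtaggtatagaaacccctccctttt
The run of 12 bases lay at -151 to -140 from the start of Ly6c1, -160 to -149 of Ly6c2 and -107 to -96 of Ly6g. Of 32851 promoters of this length, 6 (0.0183%) held it on either strand. These 32851 include 2 entries for each of the 3 genes. The run was picked because these windows share it, so its rarity is no test of a common element. Aligned end to end, with gaps counted as differences, Ly6c1 was 57.7% identical to Ly6c2 (164 of 284 columns). It was 58.5% identical to Ly6g, and Ly6c2 was 44.9% identical to Ly6g. The Ly6c2 window begins with a stretch that lies further inside the Ly6c1 window, and such an offset lowers these shares. The part of promoter sequence in the members' levels was not tested. The motifs CCACCC (a KLF-type box), TTCNNNGAA (a STAT-type site) and GAAANNGAA (an interferon response core), on both strands, had no match in the 3 windows; 28.1%, 7.02% and 7.13% of the 32851 promoters held them.

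The members lie within 397 kb of chromosome 15, between Ly6d and Ly6g, with 17 other annotated genes. Of these, 4 were tested and 4 had no count in any library. I830127L07Rik (chr15:75131377-75135128, minus strand), annotated as a transcribed pseudogene and named Ly6a2 by RefSeq, lies between Ly6c2 and Ly6g. Its level was 4.37 and 3.91 CPM at 0h, 4.82 and 5.27 CPM at 6h, 19.1 and 18.0 CPM at 12h, and 46.6 and 50.7 CPM at 24h. It rose by 2.16 ± 0.12 on the log2 scale at 12h (edgeR adjusted p = 1.0e-17) and by 3.56 ± 0.10 at 24h (adjusted p = 1.8e-26), while the 6h value of 0.29 ± 0.15 did not pass (adjusted p = 0.18). Its neighbour Ly6g stood at 18.6 and 19.2 CPM at 12h, and lower than it at 24h, at 38.5 and 39.2 CPM. These CPM are not scaled by transcript length. None of the 75-base words of I830127L07Rik occurred in Ly6g or Ly6c2. Ly6k, a relative known from the testis, fell at 24h (log2 fold change -0.43 ± 0.07, adjusted p = 6.9e-06), with 38.3 and 32.5 CPM at 24h against 49.8 and 46.0 CPM at 0h. D730001G18Rik and Gm5960, both under 1.1 CPM, did not pass at 24h (adjusted p = 0.74 and 0.17).

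**Figure D4:**
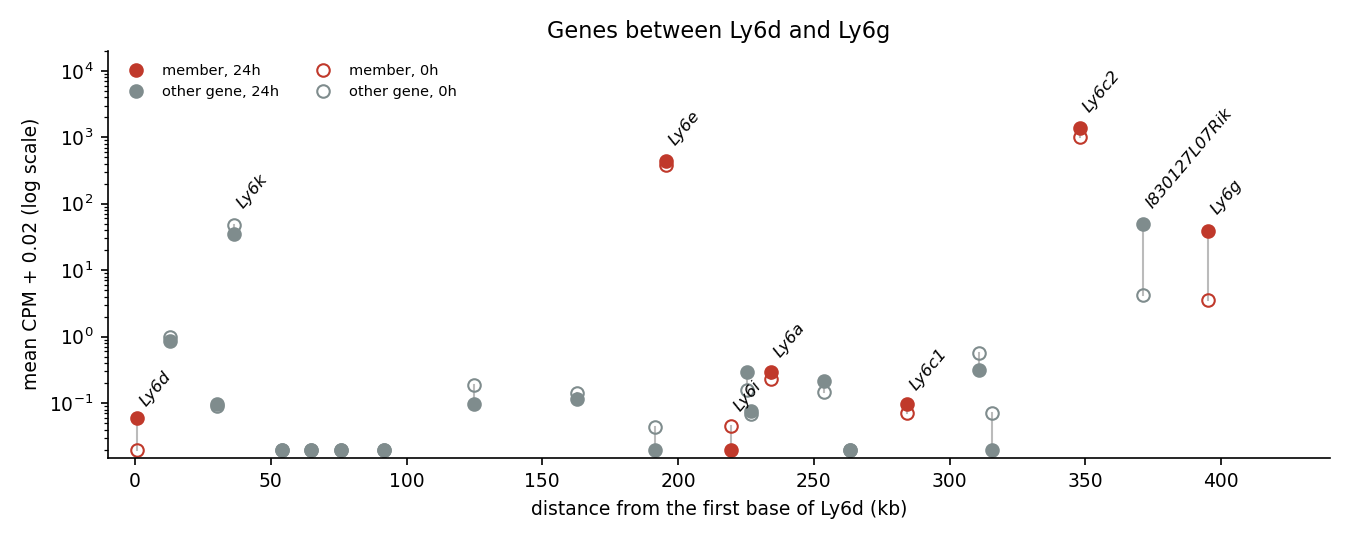
Mean level in CPM plus 0.02 on a log scale (vertical axis) at 24h (filled) and at 0h (open) of the annotated genes between Ly6d and Ly6g, by distance from the first base of Ly6d in kb (horizontal axis), members and other genes in separate colours. Ly6g and its neighbour I830127L07Rik have the widest gap between the times among genes above 1 CPM; Ly6c2 and Ly6e are high at both.

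Beyond the 7 members, 12 other genes of the Ly6/uPAR family were tested under their listed symbols. I830127L07Rik, described above, was listed only as Ly6a2, found no match, and is left out of these counts and the median. The count of the 12 that changed grew with time, as did the share of all tested genes that changed. That share was 18.3% at 6h, 43.7% at 12h and 50.9% at 24h. At 6h, Plaur and Lypd2 rose; at 12h, 3 rose and 1 fell; at 24h, 4 rose and 1 fell. The background shares of tested genes that rose were 9.74%, 22.1% and 26.1% at 6h, 12h and 24h, and those that fell 8.58%, 21.6% and 24.8%. Among the calls, 53.2%, 50.6% and 51.3% were higher at the 3 times, and 69.9%, 65.3% and 62.7% with scaling by library totals only. The median log2 fold change of the 12 was -0.03, 0.25 and 0.38 at 6h, 12h and 24h, beside -0.00, 0.00 and 0.02 over all genes.

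Plaur, the urokinase receptor gene, rose at 6h and held that level: 48.3 and 44.4 CPM at 0h, 65.1 and 66.2 CPM at 6h, 64.8 and 65.2 CPM at 12h, and 64.7 and 64.2 CPM at 24h (log2 fold change 0.48 ± 0.06 at 24h, adjusted p = 5.5e-09). Lypd2, a family gene with 0 counts in both 0h libraries, had 7 and 13 counts at 6h, 58 and 68 counts at 12h, and 196 and 204 counts at 24h. Its mean of 7.82 ± 0.578 CPM (SD, n = 2) at 24h was at least 54.2-fold higher than at 0h, with 3 counts per 0h library as the floor (adjusted p = 7.4e-18). Slurp1, which encodes a secreted family protein, also had 0 counts at 0h. It reached 52 and 43 counts at 24h, at least 12.8-fold higher (edgeR adjusted p = 1.8e-09). The end of Slurp1 overlaps Them6 on the other strand, and the counting strand is not given. Them6 stood at 28.7 and 26.9 CPM at 0h and 30.9 and 29.8 CPM at 24h (edgeR adjusted p = 0.15). The part of Them6 reads in the Slurp1 counts was not tested. Lynx1, a modulator of nicotinic receptors, rose by 0.48 ± 0.20 at 24h (adjusted p = 0.044). Ly6g5b, Lypd3, Lypd6, Lypd6b, Cd59a, Cd59b and Tex101 did not pass at 24h, with log2 fold changes of -0.40 to 0.60.

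Genes that build and remodel the GPI anchor, which most of these antigens need to reach the surface, moved in both directions. Of 28 tested, 2 rose at 6h, 4 rose and 7 fell at 12h, and 6 rose and 4 fell at 24h. Their median log2 fold change was 0.02 at 24h. Over all tested genes, 9.74%, 22.1% and 26.1% rose at 6h, 12h and 24h, and 8.58%, 21.6% and 24.8% fell. With 1 library left out in turn, 0 to 6 genes were called at 6h and 6 to 13 at 12h by edgeR, and DESeq2 called 0 at 6h; at an unadjusted p under 0.05 edgeR had 6 and DESeq2 2 of the 28 at 6h. At 24h against 0h, Pign, an ethanolamine phosphate transferase gene of the pathway, rose by 0.34 ± 0.05 (edgeR adjusted p = 3.0e-06). In the same comparison, Pigb, a mannosyltransferase gene, rose by 0.41 ± 0.08 (edgeR adjusted p = 8.3e-05). Pigo, another ethanolamine phosphate transferase gene, rose by 0.35 ± 0.07 at 24h (edgeR adjusted p = 0.00013). Dpm3, a subunit of the enzyme that makes the mannose donor, fell by 0.53 on the log2 scale at 24h (SE 0.09, edgeR adjusted p = 9.4e-06).

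Interferon signalling and response genes, listed because Ly6a, Ly6c and Ly6e are known interferon targets, moved in both directions. Of 28 tested, 2 rose and 6 fell at 6h, 5 rose and 9 fell at 12h, and 6 rose and 9 fell at 24h; the median at 24h was -0.09. Over all tested genes, 9.74%, 22.1% and 26.1% rose at 6h, 12h and 24h, and 8.58%, 21.6% and 24.8% fell. The list's 8 calls at 6h were 2 to 8 with 1 library left out. At 24h against 0h, Jak2, a kinase of cytokine receptors, rose by 0.64 ± 0.07 (edgeR adjusted p = 3.0e-10). The receptor genes Ifngr1 and Ifnar1 fell at 24h by 0.34 and 0.28 on the log2 scale (edgeR adjusted p = 6.0e-09 and 2.0e-05). Tap1, the peptide transporter gene of antigen presentation, fell at 24h by 0.26 (edgeR adjusted p = 3.0e-05).

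Surface markers commonly stained together with Ly6 antigens also moved both ways. Of 27 tested, 6 rose and 9 fell at 6h, 7 rose and 8 fell at 12h, and 8 rose and 11 fell at 24h, with a median of -0.06. Over all tested genes, 9.74%, 22.1% and 26.1% rose at 6h, 12h and 24h, and 8.58%, 21.6% and 24.8% fell. With 1 library left out, 7 to 15 of the 27 markers were called at 6h and 9 to 16 at 12h. Cd34, a progenitor marker, fell to 116 CPM at 24h, against 243 CPM at 0h (log2 fold change -1.07 ± 0.04, adjusted p = 5.7e-22). Fcgr3, an Fc receptor gene of myeloid progenitors and myeloid cells, fell by 0.61 (adjusted p = 5.8e-14), and Adgre1, which encodes the macrophage antigen F4/80, by 0.70 (adjusted p = 1.8e-12). Csf2ra, a GM-CSF receptor gene, rose by 0.45 ± 0.05 (adjusted p = 1.6e-10).

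Markers of other cells that a bone marrow sort could hold are given for the last time. At 24h against 0h the summed level was 61.7 to 62.5 against 86.6 to 91.6 CPM for mature monocytes, macrophages and dendritic cells (C1qa and C1qc at 0), and 9.40 to 9.57 against 6.53 to 6.95 CPM for T and NK cells (Cd3e, Cd3g and Ncr1 at 0). It was 10.7 to 11.1 against 15.4 to 15.6 CPM for erythroid cells and megakaryocytes and 42.1 to 46.1 against 44.7 to 48.1 CPM for endothelial and stromal cells (Kdr at 0). Fragments counted to no gene made up 9.15% at 24h against 5.47% at 0h on average. The part of these values in the members' differences was not tested.

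By Pearson correlation of log2 CPM over the 8 libraries, among 8834 genes, the closest patterns to Ly6g were those of Capg (r = 0.996), an actin-capping protein gene, Anxa1 (r = 0.995), an annexin gene, and Tmsb10 (r = 0.994), a thymosin gene. For Ly6c2 they were Tbc1d8 (0.985), Poglut1 (0.981) and Vdac3 (0.975), and for Ly6e Desi2 (0.991), Prss57 (0.970) and Dap (0.969). The 8 points fall in 4 pairs by time, and the values are a description.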

How the data were processed

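RNeasy-purified total RNA was made into TruSeq libraries, per the labels' protocols. The authors deposited raw counts per Ensembl gene, 1 file per library. The submitters' processing notes name mm10, STAR, HTSeq 2.0.3 and SAMtools 1.3. The annotation, strand setting and read length were not given in the sources used here. The 5 summary rows were left out; fragments counted to no gene and ambiguous fragments averaged 5.47% each at 0h, against 9.15% and 5.06% at 24h, and the row for non-unique alignments held 0, so the fate of reads shared by near-copies is not recorded. GENCODE M21 named 46574 of 47069 IDs.

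Genes were kept with filterByExpr (14263), scaled by TMM and tested with edgeR 4.0.16 in R 4.3.3 by 1 two-sided quasi-likelihood fit over 8 libraries (4 residual degrees of freedom), with Benjamini-Hochberg adjustment over all tested genes and a threshold of 0.05. CPM are TMM-scaled. Levels per kilobase use the APPRIS principal transcript. A simulation of 24h against 0h on 13886 genes gave every gene the same spread beyond counting error and left low genes unaltered. It recovered 99% of 2-fold changes with 12 false calls, and does not cover genes of low count or of wider spread. The members and lists were chosen with earlier results of these data known. Each list's 4 genes of smallest adjusted p at 24h, every tested family gene and the 3 closest patterns per member are named. Coding sequences (Biopython 1.88) replaced the protein comparison first planned. Alternatives were DESeq2 1.42.0, its size factors, library totals, other filters, a replicate block and leaving out each library. The result of 1 marker list is not reported here.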

Additional observations from a re-analysis of the deposited data

How the results depend on the processing

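The Ly6g log2 fold change was 3.34 to 3.52 at 24h, 2.30 to 2.49 at 12h and 0.40 to 0.74 at 6h when each library was left out in turn; Ly6c2 at 24h was 0.41 to 0.47, and 0.51 with library totals only; Ly6e at 24h was 0.17 to 0.26, and 0.28 with library totals only. At 6h and 12h, Ly6c2 was 0.0042 to 0.12 and 0.12 to 0.14 with 1 library left out, and Ly6e at 12h 0.0034 to 0.10. Ly6e at 6h changed sign, from -0.01 to 0.025 with library totals only, 0.04 without 0h replicate 2 and 0.046 without 6h replicate 1 (leave-one-out range -0.073 to 0.046). With library totals only, 2 members lay above 0h at 6h in place of 1, and 3 at 12h in place of 2. At 6h, DESeq2 called 1668 genes in place of 2613, 0 GPI genes in place of 2 and 4 interferon genes in place of 8; at 12h it called 5 GPI genes in place of 11. With DESeq2 size factors 1 GPI gene was called at 6h. The cause was not tested. Leaving out each library in edgeR gave 1319 to 2715 genes at 6h, 0 to 6 GPI genes at 6h and 6 to 13 at 12h, 2 to 8 interferon genes at 6h, and 7 to 15 surface marker genes at 6h and 9 to 16 at 12h. Counts over 1.5 times from the main one were, for all genes at 6h, 1702 without 0h replicate 1, with 1319 genes left without 0h replicate 2; for GPI genes at 6h, 0 without 0h replicate 2 (3 at an unadjusted p under 0.05) or 6h replicate 1 (1 at an unadjusted p under 0.05), 1 gene without 0h replicate 1 or without either 12h replicate, and 6 without 6h replicate 2, and at 12h 6 without 0h replicate 2 or 12h replicate 2. For interferon genes at 6h they were 2 and 3 without 0h replicates 1 and 2 and 5 without either 6h replicate. For surface markers they were 7 without 0h replicate 1 and 9 without 0h replicate 2 or 6h replicate 2 at 6h, and 9 without 12h replicate 2 at 12h. Where a time kept 1 library, it was assumed to vary like the others. The replicate numbers did not pair the libraries (correlations of same-numbered deviations -0.0171 to 0.0211); the replicate block gave 2495 genes at 6h, 6116 at 12h and 7160 at 24h and 1 GPI gene at 6h. Taking all annotated exons as gene length, an alternative chosen after seeing the data, put Ly6g at 8.28% of the Ly6c2 level per kilobase at 24h and 1.04% at 0h, against 2.49% and 0.312% in the main analysis. Depth limits Ly6a, Ly6c1, Ly6d and Ly6i.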
